A study of Homo sapiens with 18 samples.

Results

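Transcripts of 4 genes that drive or guard the human cell cycle are described here: CCND3 (cyclin D3), CDK6 and CDK1 (cyclin-dependent kinases) and TRIP13 (an ATPase of the spindle checkpoint). They were picked by name, as the lines of the deposited expression table that carry these symbols, and make up 4 of the 2581 genes whose line in that table could be tied to 1 symbol. The choice was made with earlier results of these data known, so the p-values are not tests of genes fixed beforehand. The table holds 5069 distinct sets of values in all. Expression was given as TPM, a transcript's share of all transcripts in a library, corrected for transcript length. The libraries came from 2 human acute myeloid leukaemia lines grown in suspension without treatment, OCI-AML2 with wild-type NPM1 and OCI-AML3 with the mutant called NPM1c+. Each line was sequenced as its parental cells, labelled caspase-2 wild type, and as clone 1 and clone 2, both labelled knockouts of caspase-2 made with CRISPR/Cas9, with 3 libraries per group and 18 in all. Each knockout group is a single clone, so a change from parental cells belongs to that clone, and the effect of the knockout cannot be told apart from what a clone was before or became after editing. The labels do not say whether the 3 libraries of a group came from separate cultures, so the p-values measure only the spread between libraries, which may be technical.

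A cell enters division when D-type cyclins, among them cyclin D3, bind the kinase CDK6 or its relative CDK4 and the complex phosphorylates the retinoblastoma protein, which frees E2F factors to switch on the genes of DNA replication. CDK1 with its cyclin partners then drives entry into mitosis. TRIP13 is an AAA+ ATPase that reshapes HORMA-domain proteins such as MAD2, and so takes part in switching the spindle checkpoint off and on. In blood cells cyclin D3 and CDK6 are the usual pair of the early step, and TRIP13 and CDK1 are usually abundant in cells that divide quickly.

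The table is a selection rather than a whole transcriptome. In 98.03% of its sets, group means differed by at least 0.95 on the log2 scale between the parental lines, or between parental cells and OCI-AML2 clone 1 or an OCI-AML3 clone. Counting OCI-AML2 clone 2 as well, the share was 98.44%. By these ratios of means CDK1 reached that size through OCI-AML2 clone 2 alone (1.06). TRIP13 did so through OCI-AML2 clone 1 alone (-1.31). For CDK1 and TRIP13, p-values that draw on the clone named are no separate support for a change. CCND3 reached that size in OCI-AML2 clone 2 (1.49) and in OCI-AML3 clone 1 and clone 2 (1.10 and 1.08). CDK6 reached it between the parental lines (1.31) and in OCI-AML3 clone 1 and clone 2 (-1.61 and -1.43). The p-values of CCND3 and CDK6 in those comparisons are not free of the selection either. The number of reads behind each value is unknown, and the distinct sets summed to between 170140 and 199403 TPM per library. CASP2, the targeted gene, fell from 36.1 ± 1.07 TPM (mean ± SD, n = 3) in OCI-AML2 parental cells to 9.72% of that mean in clone 1 and 12.4% in clone 2. In OCI-AML3 it stood at 28.7 ± 1.19 TPM in parental cells, 27.1 ± 0.745 in clone 1 and 32.1 ± 2.92 in clone 2, and neither clone passed the test (limma, adjusted p = 0.537 and 0.24). RNA level therefore does not check the labels of the OCI-AML3 clones, and every direction given for that line is one in clones labelled as knockouts. Of 8 myeloid marker genes, 4 were in the table and 2 could be tied to a symbol. ANPEP was at 27.02 to 70.82 TPM in OCI-AML3 and at 0.08 to 0.65 in OCI-AML2, and ITGAM was at or under 1.55 in all libraries. Of 12 markers of other lineages, CD3D alone could be tied, at 0 in OCI-AML3 and up to 1.74 TPM in OCI-AML2.

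Changes were tested with limma on log2(TPM + 1), a scale that shrinks the change of low genes, over the 4413 sets that reached 1 TPM in 3 or more libraries. All 4 genes passed that minimum. A gene is said to rise or fall where its p-value, adjusted by the Benjamini-Hochberg method over all those sets, was under 0.05. Because the table was selected for change, many sets pass. Against parental cells, 56% of sets passed in OCI-AML2 clone 1, 65.7% in OCI-AML2 clone 2, 72.2% in OCI-AML3 clone 1 and 73.1% in OCI-AML3 clone 2. Of the 4 cell cycle genes, 4, 3, 3 and 3 passed in these clones. In all but OCI-AML2 clone 1 the table as a whole comes near that share. Both OCI-AML2 clones passed in the same direction in 38.4% of sets (23.8% higher, 14.6% lower), and 3 of the 4 genes rose in both, 1 of them, CCND3, with a call in clone 1 that ended when libraries were rescaled to equal median ratios (adjusted p = 0.586). Both OCI-AML3 clones did so in 67.1% (28.7% higher, 38.3% lower), where 1 of the 4 rose and 2 fell. Among those falls, the limma call of TRIP13 in OCI-AML3 clone 2 ended after rescaling (adjusted p = 0.0924). The 2 clones of a line were compared with the same 3 parental libraries, so their changes are not independent of each other. In bulk RNA, fewer cells in a phase of the cycle and less of a transcript per cell cannot be told apart.

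CCND3 was the most abundant of the 4 transcripts in every group. OCI-AML2 parental libraries held 197.99, 175.51 and 188.83 TPM, clone 1 held 215.25, 221.12 and 194.52, and clone 2 held 523.19, 534.25 and 521.29. Clone 2 thus stood far above the other OCI-AML2 libraries, while the lowest clone 1 library lay within the parental range. In OCI-AML3 the parental libraries held 136.71, 137.39 and 132.68 TPM, clone 1 held 284.72, 290.05 and 294.58, and clone 2 held 269.42, 309.8 and 279.81. Both OCI-AML3 clones lay above all parental libraries of either line and overlapped each other.

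Relative to parental means, CCND3 was 2.81-fold higher in OCI-AML2 clone 2, 2.14-fold in OCI-AML3 clone 1 and 2.11-fold in OCI-AML3 clone 2. The log2 changes were 1.49, 1.09 and 1.07 (SE 0.07 each; adjusted p = 1.4e-12, 4.9e-11 and 6.2e-11). In OCI-AML2 clone 1 the change was 0.16 (SE 0.07, adjusted p = 0.0406), and that call ended when libraries were rescaled so that their median ratio to the table's typical level was equal, which left a change of 0.05 (adjusted p = 0.586). It also ended without clone 1 replicate 1 or 2, or without parental replicate 2 or 3, with changes of 0.12 to 0.22 over the libraries left out in turn. The other 3 clones passed under every alternative. With the deposited scaling CCND3 rose in all 4 clones, as did 6.44% of sets.

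CDK6, the kinase partner of cyclin D3, moved in opposite directions in the 2 lines. Its level in OCI-AML2 was 33.79, 37.74 and 36.39 TPM in parental libraries, 50.67, 56.08 and 44.64 in clone 1, and 67.83, 57.86 and 60.45 in clone 2. The 3 OCI-AML2 groups did not overlap and rose in that order. In OCI-AML3 the parental libraries held 85.03, 91.32 and 91.47 TPM, clone 1 held 29.18, 30.16 and 28.32, and clone 2 held 32.44, 34.14 and 32.85. The OCI-AML3 parental libraries were the highest of all 18, and all 6 libraries of its clones lay under the lowest of them.

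The mean of CDK6 was 1.40-fold the parental mean in OCI-AML2 clone 1 and 1.73-fold in clone 2, with log2 changes of 0.47 and 0.77 (SE 0.08 each; adjusted p = 5.3e-05 and 1.1e-07). It fell to 32.7% of the parental mean in OCI-AML3 clone 1 and 37.1% in clone 2, with log2 changes of -1.58 and -1.40 (SE 0.08 each; adjusted p = 3.8e-12 and 1.9e-11). A rise in both OCI-AML2 clones together with a fall in both OCI-AML3 clones was seen in 8.34% of sets. Tested directly, the mean clone change was 2.11 lower on the log2 scale in OCI-AML3 than in OCI-AML2 (SE 0.10, 95% confidence interval -2.31 to -1.91, adjusted p = 1.1e-12). That comparison of the lines called 81.7% of sets (33.2% higher in OCI-AML3, 48.5% lower) and all 4 cell cycle genes, 2 in each direction. The symbol CDK6 also stood on a line with 0 to 2.32 TPM, whose values belong to FARP1 and were left out.

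**Figure D1:**
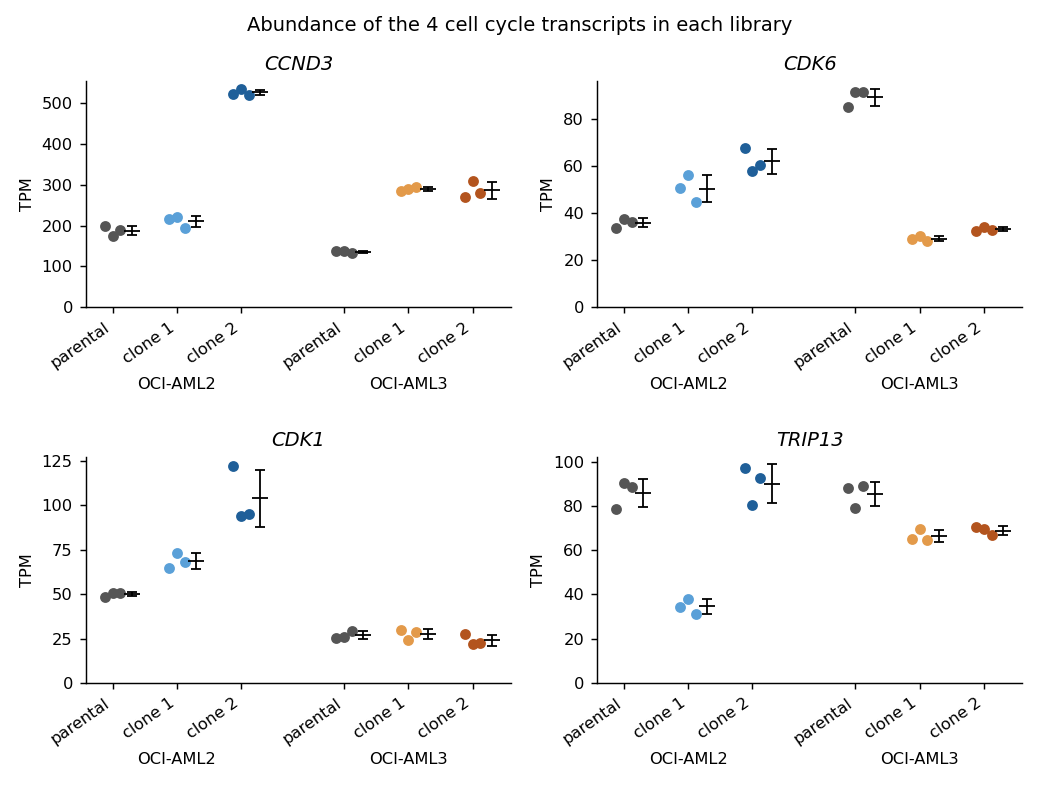
Expression of CCND3, CDK6, CDK1 and TRIP13 in TPM (vertical axis, from 0) in each of the 18 libraries. Points are libraries, and the bar beside each group of 3 is its mean with 1 SD; OCI-AML2 clone 2 has the highest CCND3 and CDK1, OCI-AML3 parental cells the highest CDK6, and OCI-AML2 clone 1 the lowest TRIP13.

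As the levels are per transcript length, the 2 transcripts of the pair can be set against each other within a library. CCND3 exceeded CDK6 in all 18 libraries. The ratio of CCND3 to CDK6 in TPM was 5.23 ± 0.606 (SD, n = 3) in OCI-AML2 parental cells, 4.18 ± 0.215 in clone 1 and 8.52 ± 0.765 in clone 2. In OCI-AML3 it was 1.52 ± 0.0799 in parental cells, 9.93 ± 0.419 in clone 1 and 8.63 ± 0.397 in clone 2. The highest OCI-AML3 parental ratio was 1.61 and the lowest ratio in its clones 8.31, so the groups were far apart. OCI-AML3 parental cells had the lowest ratio of the 6 groups, and OCI-AML3 clone 1 the highest. The ratios of OCI-AML3 clone 2 overlapped those of OCI-AML2 clone 2, which ranged from 7.71 to 9.23. In OCI-AML3 both sides of the ratio moved, cyclin up and kinase down, whereas in OCI-AML2 clone 2 both rose and the cyclin rose more. The ratio has no test of its own, and levels of RNA say nothing of how much cyclin D3 and CDK6 protein was joined.

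**Figure D2:**
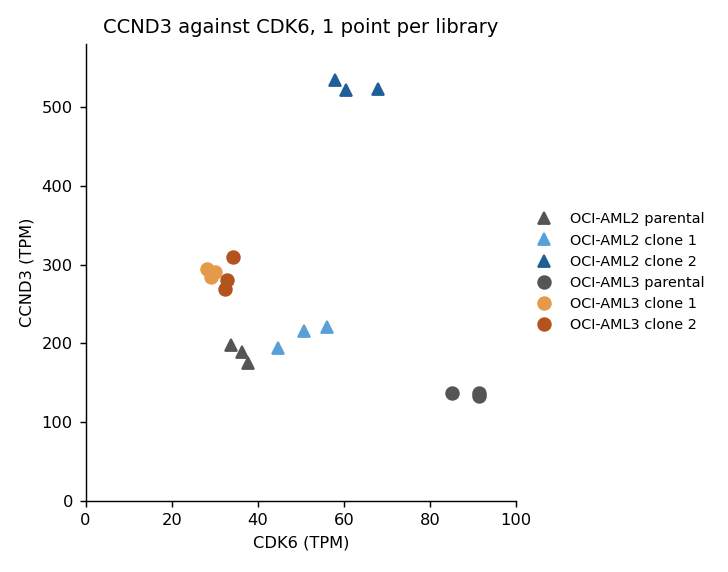
CCND3 (vertical axis, TPM) against CDK6 (horizontal axis, TPM), with 1 point per library, triangles for OCI-AML2 and circles for OCI-AML3. The OCI-AML3 parental libraries sit at the lower right (ratio 1.45 to 1.61) and its clones at the upper left of them, while OCI-AML2 clone 2 sits at the top.

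CDK1 and TRIP13 both act in mitosis, and the start of each gene is shown first. Whether these sequences bear on the levels described below was not tested. The stretches run from 120 bases before to 20 bases after the RefSeq start site, on the plus strand of GRCh38.p14, at chr10:60778358-60778497 for CDK1 and chr5:892764-892903 for TRIP13. Capitals mark the words that were searched on both strands. These are TTTGAA, known as the cell cycle homology region element of many mitotic genes, its variant TTCGAA, and CCAAT, the word bound by the factor NF-Y. On the other strand the first reads TTCAAA and the last ATTGG.
CDK1: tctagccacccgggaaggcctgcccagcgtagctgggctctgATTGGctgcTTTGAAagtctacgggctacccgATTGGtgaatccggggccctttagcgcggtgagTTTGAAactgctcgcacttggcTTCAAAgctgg
TRIP13: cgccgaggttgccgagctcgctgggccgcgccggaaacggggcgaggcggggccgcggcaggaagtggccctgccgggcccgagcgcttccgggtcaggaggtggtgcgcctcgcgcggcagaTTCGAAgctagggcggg
In windows of 300 bases, from 250 before to 50 after the start, CDK1's downstream start held 3 matches to TTTGAA and 2 to CCAAT, and its upstream start held 1 of each. TRIP13 held 1 match to TTCGAA and none to the other words. The 3 windows of CCND3 and the 2 of CDK6 held neither TTTGAA nor TTCGAA, and CCAAT occurred once in 2 of the CCND3 windows. Of 35116 such windows, 15.2% held TTTGAA, 1.45% TTCGAA and 34.6% CCAAT. A match is a run of letters and not a shown binding site.

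CDK1, the kinase of mitotic entry, rose in both OCI-AML2 clones and passed the test in neither OCI-AML3 clone. Its level in OCI-AML2 was 48.54, 50.41 and 50.73 TPM in parental libraries, 64.55, 73.07 and 67.92 in clone 1, and 122.11, 93.99 and 95.01 in clone 2. The 3 groups did not overlap, and the spread was widest in clone 2. In OCI-AML3 the parental libraries held 25.12, 25.95 and 29.5 TPM, clone 1 held 29.85, 24.4 and 28.46, and clone 2 held 27.52, 21.94 and 22.7. All 9 OCI-AML3 libraries lay under every OCI-AML2 library, and the 3 OCI-AML3 groups overlapped.

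The CDK1 mean was 1.37-fold the parental mean in OCI-AML2 clone 1 and 2.08-fold in clone 2, with log2 changes of 0.45 (SE 0.11, adjusted p = 0.00152) and 1.03 (SE 0.11, adjusted p = 1.2e-07). Clone 2 of OCI-AML2 was the only comparison in which CDK1 reached the 0.95 difference that marks nearly all sets. The p-value of that rise is therefore no separate support. In OCI-AML3 the changes were 0.03 in clone 1 (95% confidence interval -0.19 to 0.26, adjusted p = 0.805) and -0.16 in clone 2 (-0.38 to 0.07, adjusted p = 0.198). Those intervals leave out a change as large as that of OCI-AML2 clone 2, and do not show that CDK1 stayed the same. The mean clone change was 0.80 lower in OCI-AML3 than in OCI-AML2 (SE 0.13, adjusted p = 2.1e-05), a value that draws in part on that OCI-AML2 clone 2 rise. CDK1 also stood on a line with 0 to 0.14 TPM, which repeats under TNR. The 3 OCI-AML3 clone 1 values of that line do not show the rotation that marks a mislabelled twin elsewhere, so it was given to TNR by the order of the gene identifiers, and the identity of the CDK1 line used here rests on that step.

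TRIP13 had its largest change in OCI-AML2 clone 1, where it fell. The OCI-AML2 parental libraries held 78.63, 90.25 and 88.66 TPM, clone 1 held 34.37, 38.09 and 31.32, and clone 2 held 97.26, 80.29 and 92.53. Clone 1 stood apart from all other libraries of both lines, and clone 2 overlapped the parental cells. In OCI-AML3 the level was 88.15, 79.2 and 88.82 TPM in parental libraries, 65.05, 69.44 and 64.6 in clone 1, and 70.24, 69.56 and 66.69 in clone 2. Both OCI-AML3 clones lay under their parental libraries without overlap, by a smaller distance, and overlapped each other.

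TRIP13 in OCI-AML2 clone 1 was at 40.3% of the parental mean, a log2 change of -1.29 (SE 0.08, adjusted p = 3.5e-10). This was the only comparison in which TRIP13 reached the 0.95 difference that marks nearly all sets of the table. Its p-value is therefore no separate support for the fall. In OCI-AML2 clone 2 the change was 0.07 (95% confidence interval -0.11 to 0.24, adjusted p = 0.528). OCI-AML3 clone 1 was at 77.7% of its parental mean and clone 2 at 80.6%, with changes of -0.36 and -0.31 (SE 0.08 each; adjusted p = 8.6e-04 and 0.00312). After rescaling to equal median ratios these OCI-AML3 changes were -0.21 (adjusted p = 0.0124) and -0.13 (adjusted p = 0.0924), so the call in clone 2 depends on the deposited scaling. The difference between the lines was 0.28 (SE 0.10, adjusted p = 0.0181), ended as a call without OCI-AML2 parental replicate 2 (0.24, adjusted p = 0.0553) or OCI-AML3 parental replicate 2 (0.23, adjusted p = 0.066), and became 0.51 after rescaling. It averages 2 OCI-AML2 clones that differ, and the OCI-AML3 changes lie between them.

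**Figure D3:**
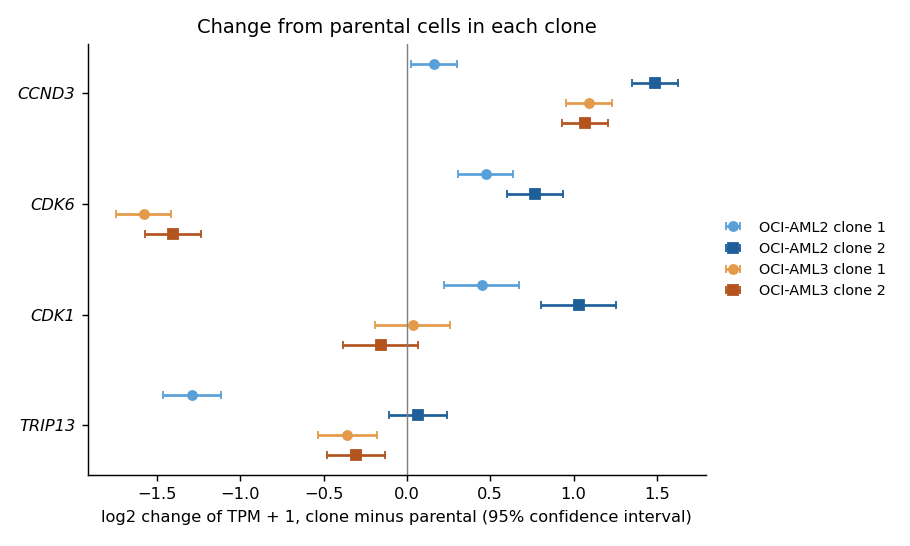
Change from parental cells in each clone, as the log2 change of TPM + 1 with its 95% confidence interval (horizontal axis), for the 4 genes; blue marks OCI-AML2, orange OCI-AML3, circles clone 1 and squares clone 2. The OCI-AML3 clones lie beside each other for every gene. The OCI-AML2 clones lie furthest apart for CCND3 (0.16 and 1.49) and TRIP13 (-1.29 and 0.07). They lie less far apart for CDK1 (0.45 and 1.03) and CDK6 (0.47 and 0.77).

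The 2 clones of OCI-AML2 differed from each other in all 4 genes, in a comparison that called 58.9% of sets (29.9% higher in clone 2, 29% lower; 1318 and 1281 sets, and 1523 and 1135 after rescaling). Clone 2 exceeded clone 1 by 1.32 for CCND3 (adjusted p = 2.1e-11), 0.30 for CDK6 (adjusted p = 0.00357), 0.58 for CDK1 (adjusted p = 1.3e-04) and 1.35 for TRIP13 (adjusted p = 3.2e-10), all on the log2 scale. TRIP13 reached the 0.95 difference only through clone 1, and CDK1 only through clone 2, so their p-values here are no separate support. Like TRIP13, 9.25% of sets fell in clone 1 and were higher in clone 2 than in clone 1. Between the 2 OCI-AML3 clones 6.82% of sets passed the limma test (3.94% higher in clone 2, 2.88% lower) and none of the 4 genes did, with 1 of them, CDK6, at an unadjusted p under 0.05 (0.0389). Clone 2 minus clone 1 was -0.02 for CCND3 (95% confidence interval -0.16 to 0.12), 0.18 for CDK6 (0.01 to 0.34), -0.19 for CDK1 (-0.42 to 0.03) and 0.05 for TRIP13 (-0.12 to 0.23).

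Before any editing the parental lines already differed in 3 of the 4 genes, in a comparison that called 90.6% of sets (47.2% higher in OCI-AML3, 43.4% lower). OCI-AML3 parental cells had less CCND3 (log2 difference -0.46, adjusted p = 2.7e-06) and less CDK1 (-0.87, adjusted p = 3.9e-07) than OCI-AML2 parental cells, and more CDK6 (1.29, adjusted p = 2.4e-11). TRIP13 means were 85.9 ± 6.30 TPM in OCI-AML2 and 85.4 ± 5.37 in OCI-AML3, a difference of -0.01 (95% confidence interval -0.18 to 0.17, adjusted p = 0.942). The lines of TRIP13 and CCND3 were accepted because their parental log2 ratio was under 0.6, so for these genes the parental values are a description and their p-values support nothing. Set against the OCI-AML2 parental libraries, CCND3 in both OCI-AML3 clones lay above all of them. CDK6 in OCI-AML3 clone 1 lay under all of them, and in clone 2 overlapped them.

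Ordered by mean level, CCND3 ran from OCI-AML2 clone 2 through OCI-AML3 clone 1, OCI-AML3 clone 2, OCI-AML2 clone 1 and OCI-AML2 parental cells to OCI-AML3 parental cells. The libraries of the OCI-AML3 clones overlapped, as did those of OCI-AML2 clone 1 and its parental cells. CDK6 ran from OCI-AML3 parental cells through OCI-AML2 clone 2, OCI-AML2 clone 1, OCI-AML2 parental cells and OCI-AML3 clone 2 to OCI-AML3 clone 1, with overlap only between OCI-AML2 parental cells and OCI-AML3 clone 2. For CDK1 the order was OCI-AML2 clone 2, clone 1 and parental cells, then the 3 overlapping OCI-AML3 groups. TRIP13 placed OCI-AML2 clone 2 and the 2 parental groups on top with overlap, then the OCI-AML3 clones with overlap, then OCI-AML2 clone 1 alone. No 2 of the 4 genes had the same order.

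The wider pathway was read from 6 lists with 139 genes, covering D-type cyclins with RB and E2F genes, inhibitors of cyclin-dependent kinases, partners of CDK1, the spindle checkpoint, DNA replication, and other kinases and cyclins of the family. The table held 39 of them, and 15 could be tied to a symbol and tested, the 4 genes above and 11 others. Symbols of 5 of those 11, CCNC, CDKN2A, CDKN2B, E2F8 and PLK1, were tied by rules added after the structure of the table was seen. The lists, like the 4 genes, were chosen with earlier results of these data known. Of the 11 others, 3 rose and 3 fell in OCI-AML2 clone 1, 6 rose and 1 fell in OCI-AML2 clone 2, and 5 rose and 5 fell in each OCI-AML3 clone. Over all sets the higher and lower calls were 35.1% and 20.9% in OCI-AML2 clone 1, 38.3% and 27.5% in OCI-AML2 clone 2, 31.3% and 41% in OCI-AML3 clone 1, and 31.6% and 41.5% in OCI-AML3 clone 2. In OCI-AML2 clone 1 the split over all sets was 1547 higher and 924 lower, and 1287 and 1201 after rescaling. Rescaling also evened the calls of OCI-AML3 clone 1, from 1380 higher and 1808 lower to 1567 and 1598, and turned those of clone 2 from 1394 and 1833 to 1636 and 1571. These shifts follow in part from the method, which sets the libraries to equal median ratios. Genes of DNA replication had 7 of 29 in the table and none that could be tied to a symbol, and the spindle checkpoint list had 4 of 26 in the table, of which TRIP13 alone could be tied.

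Among the D-type cyclin, RB and E2F genes, 5 of 21 were tested: CCND3, CDK6, E2F2, E2F7 and E2F8. In OCI-AML2 clone 2 all 5 rose, as did 38.3% of all sets, with a median log2 change of 1.49 against 0.06 over all sets. That median is the change of CCND3 itself, and E2F2, E2F7 and E2F8 changed by 1.09, 1.63 and 1.55. In OCI-AML2 clone 1 it was 4 of 5, against 35.1% of all sets, with a median of 0.34 against 0.06. CCND3 and CDK6 are among those 4, and the CCND3 call in clone 1 ended after rescaling (adjusted p = 0.586). In each OCI-AML3 clone CCND3, E2F7 and E2F8 rose and CDK6 and E2F2 fell, with medians of 0.48 and 0.52 against -0.06. Over all sets 31.3% rose and 41% fell in OCI-AML3 clone 1, and 31.6% rose and 41.5% fell in clone 2. E2F7 and E2F8, atypical E2F factors that repress E2F targets, rose in all 4 clones, as did 6.44% of all sets. E2F7 was at 1.90 ± 0.368 TPM in OCI-AML2 parental cells, 2.66 ± 0.158 in clone 1 and 7.94 ± 0.599 in clone 2, and at 0.490 ± 0.0520, 1.09 ± 0.205 and 1.14 ± 0.146 in the OCI-AML3 groups in the same order. E2F8 was at 9.98 ± 0.351, 13.3 ± 0.881 and 31.1 ± 3.13 TPM in OCI-AML2, and at 2.39 ± 0.306, 4.81 ± 0.299 and 4.28 ± 0.196 in OCI-AML3. E2F2, an activating E2F factor, was at 0.813 ± 0.138 TPM in OCI-AML3 parental cells and lower still in its clones.

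Inhibitors of the kinases were tested for 3 of 8 genes. CDKN1A, the gene of p21 and a target of p53, was at 75.6 ± 9.15 TPM in OCI-AML3 parental cells, 287.8 ± 15.2 in clone 1 and 344.0 ± 13.9 in clone 2 (log2 changes 1.92 and 2.18, adjusted p = 1.1e-10 and 2.0e-11). In OCI-AML2 it was at 8.84 ± 0.386, 7.11 ± 1.70 and 17.5 ± 1.84 TPM, with log2 changes of -0.30 and 0.91 (adjusted p = 0.045 and 3.4e-06); clone 1 and parental libraries met at 8.44 TPM. CDKN2B, the gene of p15, which blocks CDK4 and CDK6, rose from 0.657 ± 0.170 TPM to 4.64 ± 0.219 and 5.46 ± 0.722 in the OCI-AML3 clones. CDKN2A, the gene of p16 and ARF, fell from 79.8 ± 6.27 TPM to 33.9 ± 5.68 and 36.3 ± 2.83 there. The 3 inhibitors therefore did not move as a group in OCI-AML3, where 2 rose and 1 fell beside the fall of CDK6.

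Of 26 listed partners and regulators of CDK1, the gene itself, CCNA1 and PLK1 were tested. PLK1, a kinase of mitotic entry and spindle assembly, was at 115.0 ± 7.96 TPM in OCI-AML2 parental cells, 136.1 ± 17.7 in clone 1 and 372.1 ± 63.6 in clone 2. The OCI-AML3 parental cells held 79.6 ± 11.4 TPM of PLK1, and it fell to 37.2 ± 2.83 in the first clone and 52.8 ± 3.49 in the second (adjusted p = 3.4e-07 and 4.1e-04), where CDK1 did not pass. CCNA1, a cyclin A gene best known from the germ line and from leukaemia, was at 2.72 ± 0.316 TPM in OCI-AML2 parental cells, 0.537 ± 0.172 in clone 1 and 2.98 ± 0.356 in clone 2, and its log2 change in clone 1 was -1.28 (adjusted p = 6.8e-09). It rose in both OCI-AML3 clones, from 0.6 ± 0.0854 TPM to 2.10 ± 0.364 and 1.88 ± 0.111 (log2 changes 0.95 and 0.85, adjusted p = 1.6e-07 and 6.8e-07). CDK18, a less studied kinase of the family, fell from 38.2 ± 2.88 TPM in OCI-AML3 parental cells to 9.20 ± 1.22 and 10.6 ± 1.18 in the clones, and in OCI-AML2 it was at 8.75 ± 0.799, 27.9 ± 4.06 and 6.74 ± 0.721. The opposite signs of the OCI-AML2 clones for CDK18 set it apart from CDK6, which rose in both.

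**Figure D4:**
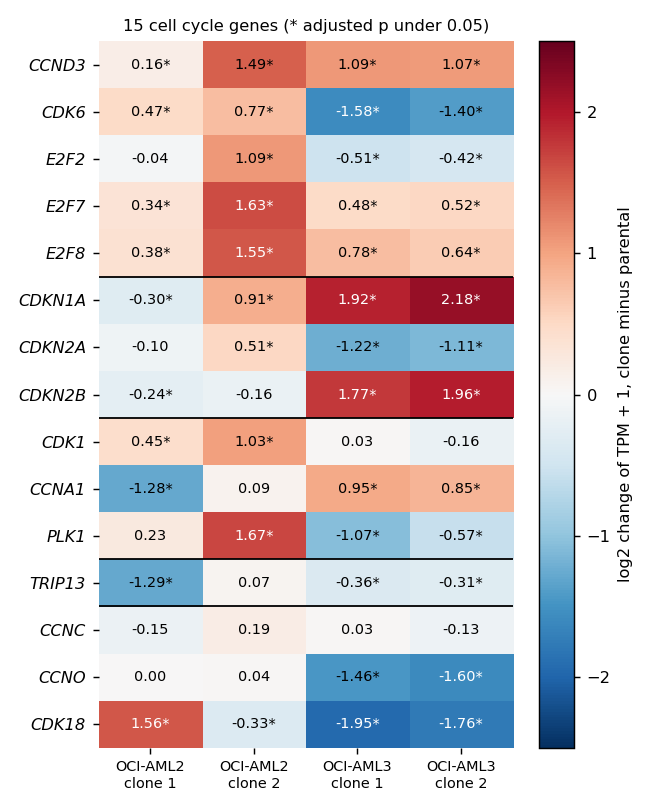
Log2 change of TPM + 1 against parental cells (colour and printed value) for the 15 tested cell cycle genes in the 4 clones, grouped by list with black lines; a star marks an adjusted p under 0.05. In OCI-AML2 clone 2 the first 5 genes all rose, and in both OCI-AML3 clones CDK6, E2F2, CDKN2A, PLK1, TRIP13, CCNO and CDK18 fell.

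The 4 genes shared little of their pattern with each other over the 18 libraries. Pearson's r of log2(TPM + 1) was highest for CCND3 with CDK1 (0.48), followed by CDK6 with CDK1 (0.27) and CDK6 with TRIP13 (0.18). The others were CCND3 with TRIP13 (0.14), CDK1 with TRIP13 (-0.12) and CCND3 with CDK6 (-0.23). The points share 2 cell lines and 6 groups, so these are descriptions. Among genes with a symbol tied by repetition or rotation (1493 or 1494 compared), those most like CCND3 were C7orf26 (r = 0.94), CYTIP (0.92) and THBS1 (0.90). Those most like CDK6 were PPP1R13B, ZBTB38 and MPP2 (0.96 each), and those most like CDK1 were TMEM45A (0.99), TSPAN13 (0.98) and ZNF347 (0.98). These neighbours were low: those of CDK6 had group means of at most 3.6 TPM, and those of CDK1 at most 0.63 TPM in OCI-AML3. For TRIP13 the likeness was weaker, with KIAA0754 (0.80), ATP6V0E2 (0.66) and RNASE6 (0.64). With the 2299 genes that the added rules allow, CTSA stood nearest to CCND3 (0.99) and SGCB nearest to TRIP13 (0.96), and the 3 genes nearest to CDK6 and to CDK1 were the ones just named.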

How the data were processed

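Per the labels, column-purified RNA of untreated cells, cultured for under 2 weeks, was made into libraries at BGI Americas. The deposited table gives TPM, per the file headers. Which aligner and genome build were used is not given in the sources used here. Sample titles gave the groups and the replicate numbers. The table has 6999 lines and stacks several lists, and 1 of them carries wrong symbols with the 3 OCI-AML3 clone 1 values rotated (1201 pairs). Repeats were counted once. A set of values was tied to a symbol where it was repeated under it alone or where the rotation showed the true line, as planned. Rules added after the structure was seen accept a single line with like parental levels (log2 ratio under 0.6, which 0 of 1307 mislabelled lines had), a single line whose mislabelled place was taken, and the order of the identifiers; CCND3 and TRIP13 rest on the first, CDK1 on the other additions, CDK6 on the planned rule. The members and lists were chosen with earlier results of these data known. limma 3.58.1 (R 4.3.3) fitted 6 group means with an intensity trend to log2(TPM + 1) of 4413 sets, and was tested on simulated data. Named were the 4 genes, CASP2, list genes that passed in both clones of a line, and for each gene the 3 most alike; CCNC and the other list genes in the heat map were named by list membership. Precision rests on 3 libraries per group, since depth is unknown. Alternatives were a pseudocount of 0.1, other minimum levels, every line counted, no trend, 1 line at a time, a replicate block, rescaling by the median of ratios and each library left out.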

Additional observations from a re-analysis of the deposited data

Results flagged for a closer look

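All 4 genes had mean clone changes, on the log2 scale of TPM + 1, that differed between the lines by the limma test of the difference itself, OCI-AML3 minus OCI-AML2, a test that 81.7% of all sets passed. The difference was 0.25 for CCND3, which rose in both OCI-AML3 clones and in OCI-AML2 clone 2. It averages OCI-AML2 clones at 0.16 and 1.49, and the OCI-AML3 changes of 1.09 and 1.07 lie between them. For CDK6 it was -2.11, with a rise in both OCI-AML2 clones and a fall in both OCI-AML3 clones. CDK1 differed by -0.80, with a rise in the OCI-AML2 clones alone passing the test. That value draws on OCI-AML2 clone 2, the only comparison in which CDK1 reached the 0.95 difference that marks nearly all sets. TRIP13 differed by 0.28, a value that averages an OCI-AML2 clone at -1.29 with one at 0.07, and its call ended when OCI-AML2 parental replicate 2 or OCI-AML3 parental replicate 2 was left out (adjusted p = 0.0553 and 0.066). Over all sets the median of this difference was -0.23, and -0.06 after rescaling, so CCND3 and TRIP13 lie above it and CDK6 and CDK1 under it on either scale.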

How the results depend on the processing

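Of 488 alternatives over 32 results, 469 kept the direction and the side of the threshold, and 25 results kept both throughout. CCND3 in OCI-AML2 clone 1 (0.16) did not pass without the intensity trend (0.16, adjusted p = 0.0544), with OCI-AML2 libraries alone (0.16, adjusted p = 0.0923), with the replicate block (0.16, adjusted p = 0.054) or after rescaling (0.0465), and ranged from 0.12 to 0.22 with each library left out; its adjusted p ran from 0.0096 to 0.586. TRIP13 in OCI-AML3 clone 2 did not pass after rescaling (-0.13; adjusted p over its alternatives 0.00058 to 0.0924), and its difference between lines ranged from 0.23 to 0.34 with a library left out. Differences not called in any setting changed sign: CCND3 between the OCI-AML3 clones (0.0026 after rescaling; -0.0774 to 0.0230 with a library left out), CDK1 in OCI-AML3 clone 2 (0.0097 after rescaling) and clone 1 (-0.0230 to 0.1173), and TRIP13 between the parental lines (-0.0682 to 0.0458). Rescaling took off 0.12 in OCI-AML2 clone 1, 0.03 in OCI-AML2 clone 2, -0.15 and -0.17 in the OCI-AML3 clones, and 0.14 between the parental lines. It raised the CCND3 difference between the lines from 0.25 to 0.49 and that of TRIP13 from 0.28 to 0.51. Among the other list genes it brought CCNC in OCI-AML2 clone 1 past the threshold (-0.27) and ended the E2F8 difference between lines (-0.07). Between the OCI-AML3 clones 301 sets passed, but 166 with a pseudocount of 0.1 and as few as 102 without clone 2 replicate 2. Other libraries left out there gave 143, 181 and 180 without clone 1 replicates 1, 2 and 3, 171 without clone 2 replicate 1 and 343 without clone 2 replicate 3. After rescaling 409 passed (277 higher, 132 lower). Same-numbered libraries did not pair: 5 of 45 pairs had r over 0.1 (range -0.34 to 0.18), the own number correlated best in 11 of 45, and the replicate block ended no other call for the 4 genes. The causes were not tested.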
